A study of Mus musculus with 32 samples.

Results

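Livers of E2f1 knockout mice and of wild-type mice, both taken 20 h after lipopolysaccharide (LPS), were compared on 12 of the 32 arrays of the study. The members were chosen by their titles: 6 arrays labelled E2F1 at 20 h of LPS and 6 labelled B6129 at 20 h of LPS. The knockout strain label joins B6, 129 and E2F1-/-, and the wild-type strain is labelled B6x126 F2. LPS, the endotoxin of Gram-negative bacteria, was given systemically to both groups, and the other arrays hold the same genotypes on saline or at 6 h of LPS. Each array carries its own animal number, so 1 array stands for 1 mouse. Sex, age, LPS dose and the deleted piece of E2f1 are not given in the labels. The Y-linked genes Ddx3y and Eif2s3y were well above background on all 6 arrays of each genotype. The dimmer Y-linked gene Uty was so on 3 knockout and 5 wild-type arrays. The wild-type mice are not stated to be littermates of the knockouts, so strain background and genotype cannot be told apart.

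E2F1 is a transcription factor that binds DNA as a dimer with a DP protein and is held in check by the retinoblastoma protein. It is best known for switching on the genes of S-phase entry, and it also acts on apoptosis and metabolism. LPS is sensed by Toll-like receptor 4, and in the liver the cytokine wave that follows makes hepatocytes produce acute-phase proteins such as serum amyloid A while many metabolic genes are turned down.

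Signals are given below as log2 of the array's processed signal minus the 75th percentile of that array, so 0 is a probe as bright as that percentile and 1 unit is a 2-fold difference. The 12 arrays had 21605 to 28891 spots well above background, and their 75th percentiles lay between 494 and 1138 intensity units. The labels name the liver as the tissue while their extraction text speaks of lung. Of 8 hepatocyte markers, 7 were well above background on all 12 arrays, and the other, Serpina1e, had no probe. Of 8 lung epithelium markers, 4 (Sftpb, Sftpc, Foxj1 and Nkx2-1) were well above background on none. The lung markers Sftpa1 and Sftpd were well above background on all 12 arrays. In a bulk tissue, fewer cells of a type and less RNA per cell cannot be told apart.

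E2f1 itself was not lower on the arrays labelled knockout. Its brighter probe (chromosome 2, 154386004 to 154386063, minus strand, mm9) read -4.03, -5.81, -6.21, -6.00 and -5.78 on wild-type arrays 2 to 6, and had no usable spot on wild-type array 1. The knockout arrays 1 to 6 read -3.27, -0.23, -2.96, -1.22, -0.62 and -4.04. The knockout arrays were thus mostly the brighter ones, with an overlap between wild-type array 2 and knockout array 6. Only 2 wild-type arrays were well above background at this probe, against all 6 knockout arrays, so the size of the difference is uncertain. The fitted difference was 3.51 ± 0.69 (SE) in log2, with an adjusted p of 0.0919 by limma and an exact two-sided permutation p of 0.00649. The same probe was 3.80 higher without knockout arrays 4 and 6 (adjusted p = 0.113). A second E2f1 probe, 154385742 to 154385801 on the same chromosome, was also higher by 2.10 (exact two-sided permutation p = 0.00433), with 1 wild-type and 5 knockout arrays well above background. On saline the brighter probe differed by 0.12 and at 6 h of LPS by 1.53. Where these probes lie relative to the deleted piece is not given, so they do not check the genotype, and every direction below rests on the labels.

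**Figure D1:**
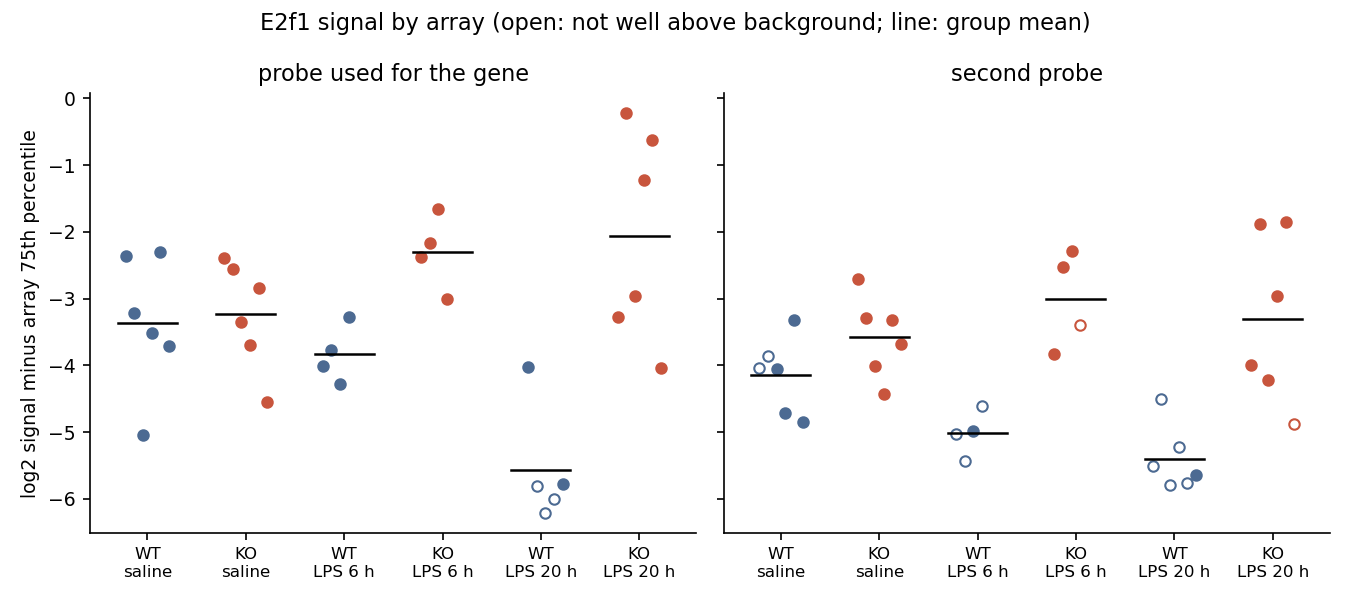
Log2 signal of the 2 E2f1 probes on each array of the study, by genotype and treatment; points are arrays. At 20 h of LPS the knockout arrays lie mostly above the wild-type arrays, and only wild-type array 2 and knockout array 6 overlap at the brighter probe.

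Knockout arrays 4 and 6 stood apart from the other 4 of their group. A response score was computed from 7557 genes that differed between wild-type saline and wild-type LPS at 20 h, scaled to 0 at the mean of wild-type saline and 1 at the mean of wild-type LPS. Knockout array 4 scored 0.355. The other 5 knockout arrays scored 0.960 to 1.065 and the wild-type arrays 0.798 to 1.127. Knockout array 6 scored 1.036 and so was not weak on this scale, but it lay at the other end of the first principal component from array 4, at -83 against 111. Across genes, array 4 correlated with the mean of the rest of its group at 0.935 and array 6 at 0.949, against 0.960 to 0.986 for the other 10 arrays. Results are therefore given with and without these 2 arrays. Of the saline arrays, 1 labelled knockout scored 0.743 where the other 5 scored 0.009 to 0.106, and saline results are given without it too. At 6 h of LPS, 1 array labelled knockout scored 0.132 where the other 3 scored 0.666 to 0.745, and 6 h results are likewise given without it.

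**Figure D2:**
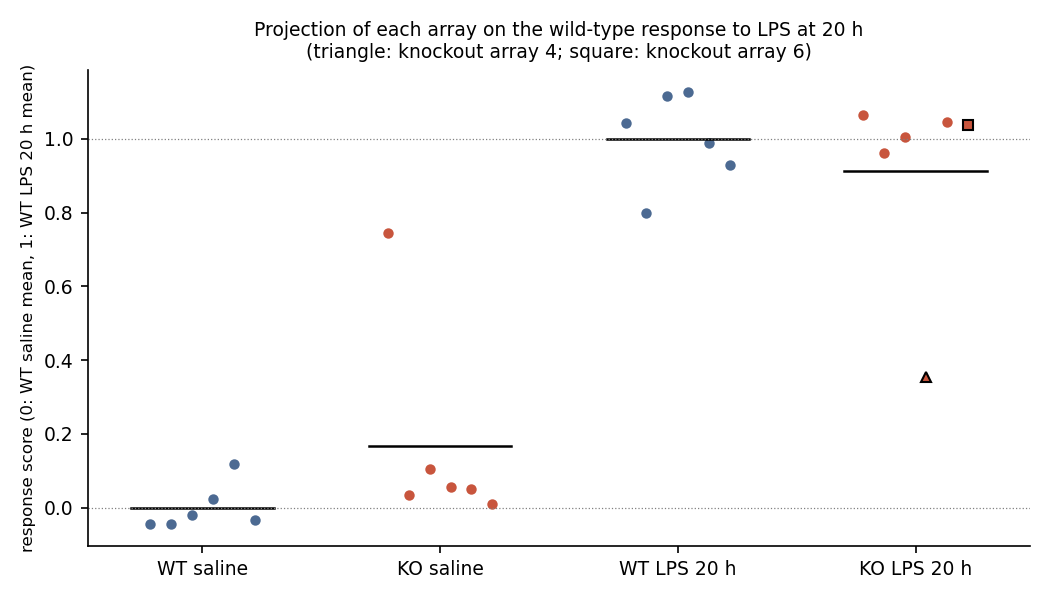
Response score of each array, 0 for the mean of wild-type saline and 1 for the mean of wild-type LPS at 20 h; points are arrays. Knockout array 4 at 20 h of LPS scored 0.355 and 1 saline array labelled knockout scored 0.743.

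At 20 h of LPS, 26 of 17339 genes tested differed between the genotypes at an adjusted p under 0.05 (limma, Benjamini-Hochberg), which is 0.15% of them. Of these, 7 were higher (0.0404%) and 19 lower (0.11%) on the knockout arrays. The called differences ran from 1.47 to 7.33 in absolute log2 size. At an unadjusted p under 0.05 the count was 1075 genes, or 6.2%. The genotypes did not overlap at 94 genes (0.542%), which include all 26. Only 12 of the 26 carry gene symbols, 8 lower and 4 higher, and the rest are clone or predicted names.

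The largest fall was that of Gbp1, now named Gbp2b, an interferon-inducible guanylate-binding GTPase of cell-autonomous defence (probe at chromosome 3, 142281897 to 142281956, mm9). Its signal on wild-type arrays 1 to 6 was 4.45, 1.04, 4.07, 4.74, -4.20 and 1.54. On knockout arrays 1 to 6 it was -6.44, -4.65, -5.79, -5.55, -4.71 and -5.20. No knockout array had Gbp1 well above background, while all 6 wild-type arrays did. Wild-type array 5, at -4.20, was nonetheless almost as dim as the knockouts. Taking the background bound, Gbp1 was at least 102-fold lower. The fitted difference was -7.33 ± 1.22 with an adjusted p of 0.0297. Without knockout arrays 4 and 6 it was -7.34 with an adjusted p of 0.137, so the call was lost at an unchanged size. Without wild-type array 5 the difference was -8.56 with an adjusted p of 1.31e-04. That was the only 1 of 12 fits with a single array left out that kept the call, and the adjusted p rose to as much as 0.094 in the others.

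Rprd1b, a protein that binds the C-terminal domain of RNA polymerase II, lies on chromosome 2 (157902024 to 157902083, mm9), as does E2f1. It ranged from 0.71 to 2.09 on the wild-type arrays (median 1.19) and from -0.94 to 0.15 on the knockout arrays (median -0.61). The genotypes did not overlap, and the difference was -1.82 ± 0.29 (adjusted p = 0.0282). It was -1.66 without knockout arrays 4 and 6 (adjusted p = 0.131). A second Rprd1b probe, well above background on all 12 arrays, differed by only -0.10, so the probes disagree. Within 10 Mb of E2f1, Rprd1b was the only 1 of 204 tested genes called, or 0.49%, against 0.15% of all genes.

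Promoters were searched for the E2F letters TTTCCCGC, TTTCGCGC, TTTGCCGC and TTTGGCGC and for the interferon-response letters GAAA, any 2 bases and GAAA, on both strands, from 250 bases before to 50 after each start. Of the called genes, 14 had a promoter in RefSeq's table (GRCm38.p6). Rprd1b was the only 1 with E2F letters, which 2.26% of all 32851 promoters hold. Gbp1 and Zfp982 held the interferon-response letters, found in 3.44% of all promoters. The promoters of Gbp1, which showed the largest difference, and of Rprd1b are shown with the matches in capitals, at chr3:142594597-142594896 and chr2:158028247-158028546, both on the plus strand.
Gbp1 (Gbp2b): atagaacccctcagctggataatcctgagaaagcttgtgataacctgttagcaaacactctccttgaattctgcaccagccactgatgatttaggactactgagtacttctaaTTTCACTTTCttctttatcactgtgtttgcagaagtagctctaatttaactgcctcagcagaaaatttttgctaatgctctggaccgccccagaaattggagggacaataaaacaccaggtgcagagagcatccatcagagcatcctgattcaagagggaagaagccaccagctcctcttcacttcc
Rprd1b: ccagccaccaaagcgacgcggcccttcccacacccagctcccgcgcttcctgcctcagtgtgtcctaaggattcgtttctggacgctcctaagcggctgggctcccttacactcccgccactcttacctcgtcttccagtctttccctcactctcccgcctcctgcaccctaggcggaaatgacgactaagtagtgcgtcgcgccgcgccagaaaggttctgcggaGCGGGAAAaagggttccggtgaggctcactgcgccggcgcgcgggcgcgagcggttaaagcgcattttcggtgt
The Gbp1 match lies at -137 and the Rprd1b match at -24 from the start. A match of letters is a description and does not show that a factor binds there.

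Dct, an enzyme of melanin synthesis, was bright in wild type and dark on the knockout arrays (probe at chromosome 14, 118412048 to 118412105). Its wild-type signal ran from -1.98 to 1.39 (median -0.34) and its knockout signal from -8.05 to -5.10 (median -6.53). A wide gap separated the groups, and no knockout array was well above background, so Dct was at least 21.0-fold lower. The fitted difference was -6.32 ± 0.60 (adjusted p = 3.04e-04), and it was -6.49 without knockout arrays 4 and 6 (adjusted p = 0.00427). Myom2, a structural protein of the muscle M-band, gave a like pattern. It ran from -2.74 to 0.71 (median -1.01) in wild type and from -7.27 to -5.70 (median -6.22) in the knockout, again with no knockout array above background. The difference was at least 13.5-fold, fitted as -5.43 ± 0.51 (adjusted p = 3.04e-04), and -5.67 without arrays 4 and 6 (adjusted p = 0.00333). The second probes of Dct and of Myom2 were below background on all 12 arrays and give no value.

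Moxd1, a copper monooxygenase related to dopamine beta-hydroxylase, ran from -3.38 to 1.09 in wild type (median -0.89) and from -5.94 to -4.94 in the knockout (median -5.29). Only 2 knockout arrays had it above background, and all 6 lay below the lowest wild-type array. It fell by 4.48 ± 0.59 (adjusted p = 0.00593), and the call held narrowly without arrays 4 and 6 at -4.36 (adjusted p = 0.0491). Tiam2, an exchange factor that activates the GTPase Rac, was above background on all 12 arrays. It ran from -1.40 to 1.54 in wild type and from -4.62 to -3.09 in the knockout, a 13.1-fold difference (-3.71 ± 0.43, adjusted p = 0.00176). Without arrays 4 and 6 the Tiam2 difference was again -3.71 (adjusted p = 0.0165).

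Cml4, now named Nat8, an acetyltransferase of the endoplasmic reticulum (chromosome 6), fell while staying well above background on all 12 arrays. Its wild-type arrays read 2.85, 3.74, 2.46, 2.39, 2.80 and 3.22, and its knockout arrays 0.38, 0.92, 1.02, -0.57, 0.71 and 1.03. All 6 knockout mice were thus below all 6 wild-type mice. The difference was -2.33 ± 0.32 (adjusted p = 0.0063), and -2.15 without arrays 4 and 6 (adjusted p = 0.0155). Slc8a1, the plasma membrane sodium-calcium exchanger, ran from -3.07 to -1.38 in wild type and from -5.79 to -3.61 in the knockout. Its difference was -2.41 ± 0.39 (adjusted p = 0.0282) and -2.80 without arrays 4 and 6 (adjusted p = 0.0165). That probe was well above background on 6 wild-type and 3 knockout arrays. Another Slc8a1 probe, so on 5 wild-type and 3 knockout arrays, differed by only 0.04. A further probe, so on 2 arrays of each genotype, differed by 0.06. The rest were dim and differed by -0.01 to 0.53. The probes thus disagree, and the Slc8a1 call rests on 1 probe.

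The 4 symbols that rose were Tmprss4, Hs6st3, Prm1 and Kcnh2. Tmprss4, a membrane-bound serine protease, ran from -5.15 to -4.32 in wild type and from -3.21 to -2.13 in the knockout. It rose by 1.99 ± 0.22 (adjusted p = 0.00155), and by 2.04 without arrays 4 and 6 (adjusted p = 0.0114). Only 3 wild-type arrays were well above background for Tmprss4, against all 6 knockout arrays, so the size of its rise is uncertain. Hs6st3, which adds 6-O-sulfate to heparan sulfate, was well above background on all 12 arrays and rose by 1.47 ± 0.20, from -3.63 to -3.18 in wild type to -2.23 to -1.40 in the knockout (adjusted p = 0.00593). Its difference without arrays 4 and 6 was 1.43 (adjusted p = 0.0155). Prm1, a protamine that packs sperm DNA, rose by 2.11 ± 0.34 and Kcnh2, a voltage-gated potassium channel, by 2.08 ± 0.34, both at an adjusted p of 0.0282. Neither passed without arrays 4 and 6, where Prm1 was 1.99 higher (adjusted p = 0.113) and Kcnh2 2.08 higher (adjusted p = 0.0995). The other Prm1 probes were 0.21 and 2.21 higher, so they disagree.

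Among the unnamed transcripts, AK035950 had the smallest adjusted p of all genes. It ran from -2.75 to -1.18 in wild type and from -8.09 to -6.20 in the knockout, where no array was above background. AK035950 was thus at least 9.23-fold lower. Its fitted difference was -5.52 ± 0.37 (adjusted p = 1.41e-05) and -5.86 without arrays 4 and 6 (adjusted p = 6.85e-05). AK047643 was above background on no wild-type array and on 4 knockout arrays, and was at least 2.38-fold higher (2.64 ± 0.26, adjusted p = 4.12e-04). Of the 26 called genes, 6 had no knockout array and 1 no wild-type array well above background. By accession, OTTMUSG00000010671 is Zfp982 and OTTMUSG00000002196 is Krtap4-16. Dct, Hs6st3 and B930095G15Rik lie within 3.24 Mb of chromosome 14, where 16 genes were tested and these 3 were called, against 0.15% of all genes. Dct and B930095G15Rik mark the ends of that window, so its share of called genes was set by the choice of window.

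**Figure D3:**
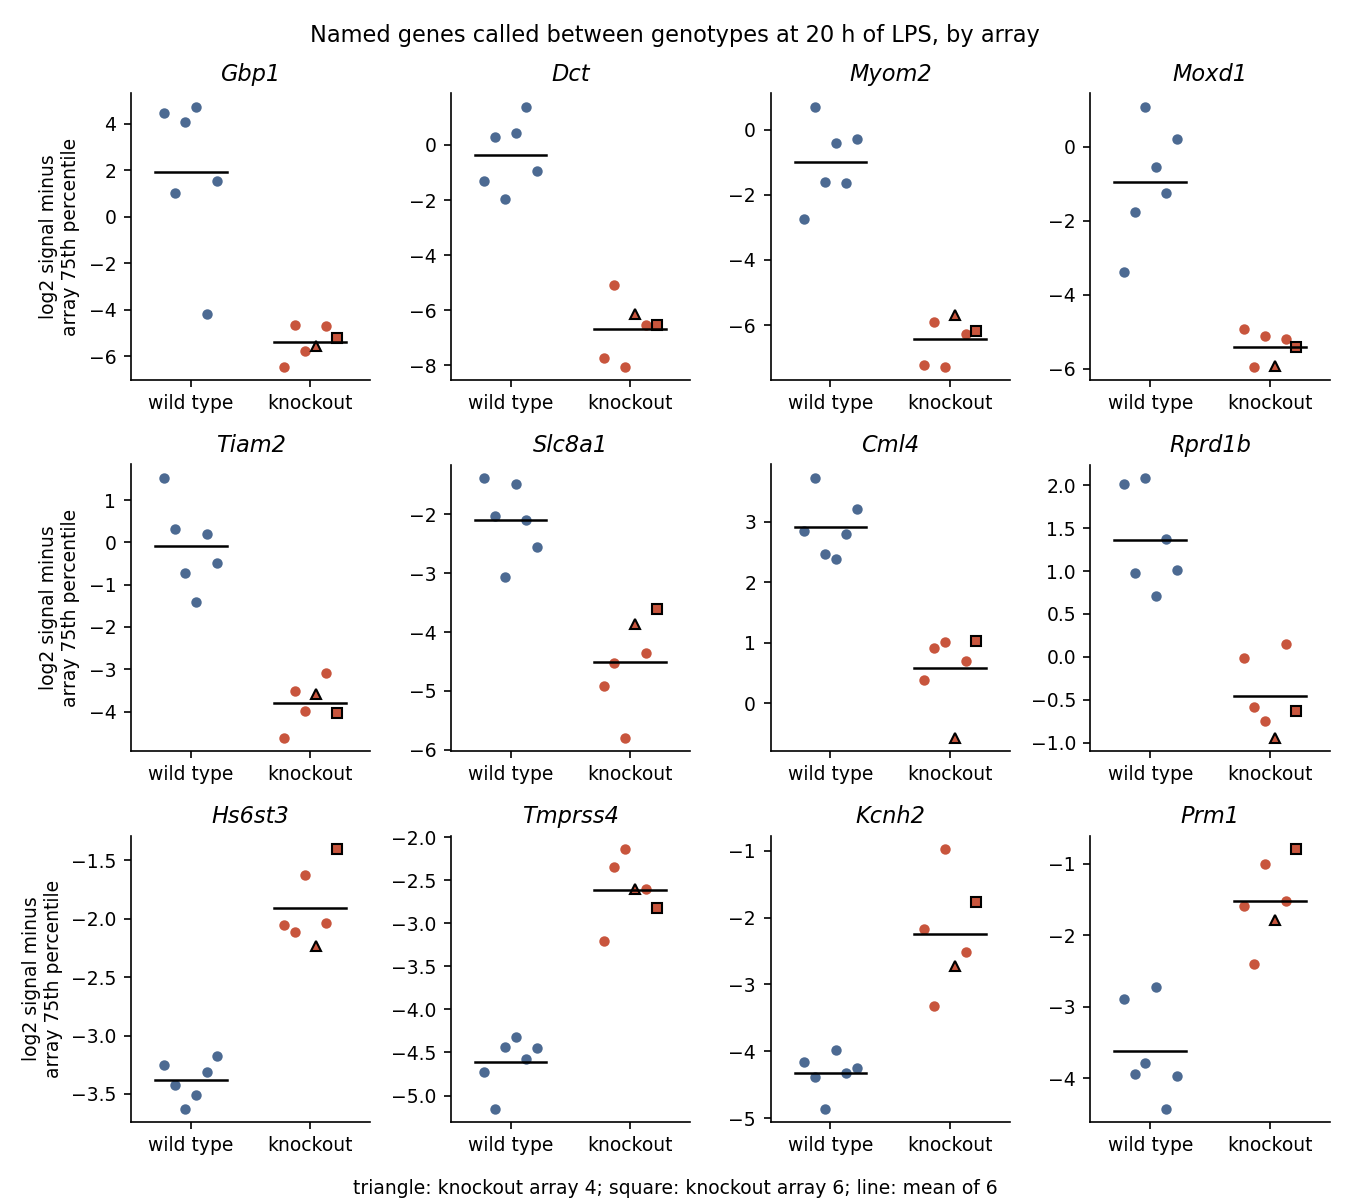
Log2 signal minus the array's 75th percentile of the 12 called genes with a symbol, on each array at 20 h of LPS; points are arrays, lines are means of 6, and knockout arrays 4 and 6 are a triangle and a square. The genotypes do not overlap at any of them, as their selection required, and wild-type array 5 is far below the other wild-type arrays at Gbp1.

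Leaving out knockout arrays 4 and 6 together left 19 called genes (0.11%), 5 higher (0.0288%) and 14 lower (0.0807%), of which 15 were among the 26. Of the 12 symbols, 8 passed in both fits: Dct, Myom2, Moxd1, Tiam2, Slc8a1, Cml4, Tmprss4 and Hs6st3. Gbp1, Rprd1b, Prm1 and Kcnh2 did not pass without these arrays, with differences of -7.34, -1.66, 1.99 and 2.08. In all, 11 genes were called only with all 12 arrays and 4 only without these 2. One of the 4 was Apoa4, an apolipoprotein of triglyceride-rich particles, with wild-type values of 4.30, 5.26, 5.83, 4.92, 4.97 and 4.73. Its knockout values were 3.33, 2.80, 2.69, 4.12, 2.98 and 5.06, so array 6 lay among the wild-type arrays and array 4 just below them. Apoa4 differed by -1.51 with all arrays (adjusted p = 0.309) and -2.05 without the 2 (adjusted p = 0.0165). Sox14, a developmental transcription factor, was 1.30 higher with all arrays (adjusted p = 0.061, and 0.0477 without the 2), and Tex12, of the synaptonemal complex, from -1.60 to -1.29 (adjusted p = 0.0343). The last was the probe A_51_P327496.

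The 12 arrays sat on 8 slides scanned on 3 dates. With the slide as a fixed block 1 gene was called, and with the slide as a random block 79 genes, which include all 26. With the scan date as a block 24 genes were called, 19 of them among the 26. Within single scan dates, with 1 to 3 wild-type and 2 knockout arrays each, no gene passed by limma, against 1375, 739 and 476 genes at an unadjusted p under 0.05. Only 3 slides held both genotypes. Gbp1 differed by -6.59, -9.73 and -5.96 within the 3 dates.

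The saline and 6 h arrays show the same genes in mice that the 20 h comparison did not use. On saline, 85 genes were called (0.49%), and 127 (0.732%) without the high-scoring knockout array. All 26 had the same sign on saline as at 20 h. Of them, 15 were at an unadjusted p under 0.05, which 7.97% of all genes were in either direction. Without the high-scoring array 14 were. The 26 are not all separate observations, as AK139880, OTTMUSG00000010671 and NAP102495-1 moved together within groups at 20 h (correlations of 0.88 to 0.99). Of the 26, 5 were called on saline in the same direction: AK035950, Rprd1b, NAP102495-1, 9830163H01Rik and OTTMUSG00000002196. AK035950 was above background on no knockout saline array and was at least 6.39-fold lower there (fitted -4.88, adjusted p = 7.55e-04; -4.99 without the high-scoring array, adjusted p = 9.94e-04). Rprd1b differed by -2.15 (adjusted p = 0.00684), and by -2.14 without that array (adjusted p = 0.00832). At 6 h of LPS 6 genes were called (0.0346%), and 65 (0.375%) without the low-scoring knockout array. Of the 26, 21 had the same sign at 6 h, and 22 without the low-scoring array. Dct was the only 1 called, at -7.41 ± 0.81 (adjusted p = 0.0395), and at -7.11 without the low-scoring array (adjusted p = 0.0395).

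Gbp1 differed little on saline, where it read -3.01 to -0.08 in wild type and -5.27 to -1.31 in the knockout, a difference of -0.88, or -0.42 without the high-scoring array. At 6 h of LPS it ran from -2.46 to 5.39 in wild type and from -7.63 to -0.15 in the knockout, a difference of -7.63 ± 2.09 that did not pass (adjusted p = 0.224). Without the low-scoring 6 h array it was -7.86 (adjusted p = 0.164). Myom2 differed by -6.03 ± 1.80 on saline (adjusted p = 0.27) and by -5.60 at 6 h, and by -6.45 and -4.86 without those 2 arrays. Cml4 differed by -0.11 on saline and 0.78 at 6 h, and by -0.23 and 0.93 without them. Moxd1 differed by -1.57 and 1.80, and by -1.54 and 2.51 without them. Tiam2 differed by -4.06 and 0.83, and by -3.96 and 0.77 without them. None of these Myom2, Cml4, Moxd1 and Tiam2 differences passed.

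**Figure D4:**
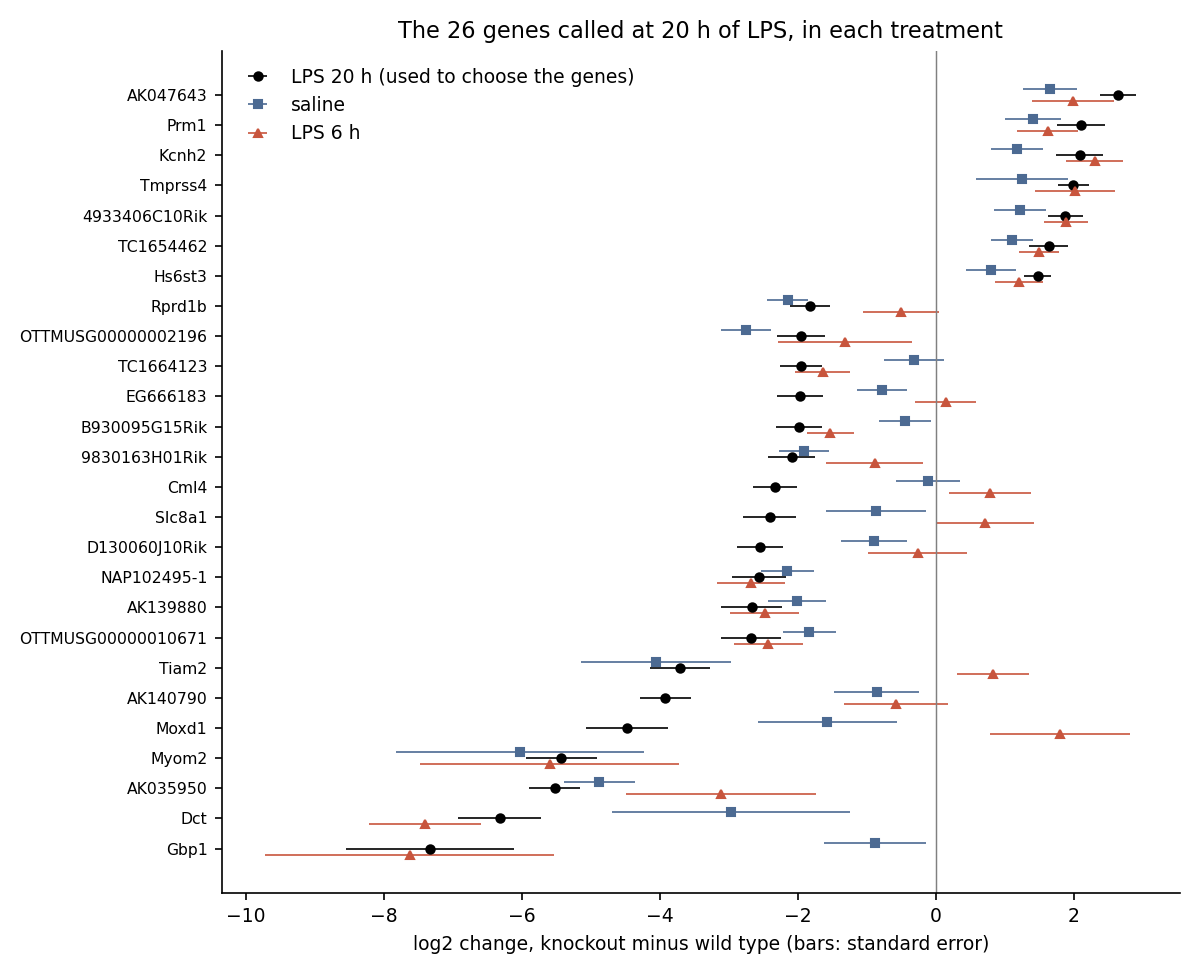
Knockout minus wild-type log2 difference of the 26 genes called at 20 h of LPS, on saline, at 6 h and at 20 h; bars are standard errors. All 26 lie on the same side of 0 on saline as at 20 h, and 21 do so at 6 h.

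Whether a genotype difference at 20 h of LPS departed from that on saline was tested directly. Only 6 genes passed (0.0346%), 1 higher (0.00577%) and 5 lower (0.0288%), and none of the 26 was among them. Without the high-scoring saline array 16 genes passed (0.0923%), and without knockout arrays 4 and 6 of the 20 h group 1 did (0.00577%). That gene was Adamts13, the protease that cuts von Willebrand factor. On saline it read -7.94 to -5.79 in wild type and -2.57 to -1.37 in the knockout, and at 20 h the genotypes differed by 0.08. No wild-type saline array was above background, so Adamts13 was at least 8.07-fold higher in the knockout on saline. The fitted change in its difference was -4.99 (adjusted p = 1.65e-04), a size that rests on those dim signals. Of the 26 called genes, 9 were at an unadjusted p under 0.05 in this test, which 6.79% of all genes were. The 26 were chosen by their 20 h difference, which this test also contains. Their share therefore cannot be set against that of all genes.

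Of the 13 measured genes of the E2F and retinoblastoma family, none was called. Over all genes 0.15% were called, so lists of this size would rarely hold a call. E2f1, E2f2 (0.91), E2f7 (0.88) and the DP partner Tfdp2 (0.68) were higher and the repressor E2f6 (-0.97) was lower at an unadjusted p under 0.05, which 6.2% of all genes reached. Their adjusted p-values ran from 0.57 to 0.69 with E2f1 aside. E2f7, an atypical E2F that represses cell-cycle genes, read -5.60 to -4.24 in wild type and -3.84 to -3.27 on 5 knockout arrays. Knockout array 6 read -4.86 and lay among the wild-type arrays. E2f7 was faint, well above background on only 3 wild-type and 4 knockout arrays. The retinoblastoma gene Rb1 differed by 0.14 ± 0.24, and the other pocket proteins by 0.53 (Rbl1) and 0.26 (Rbl2). Among 38 S-phase entry genes with E2F sites the median difference was 0.18, against -0.004 over all genes tested, and none was called. Mcm3, of the replicative helicase, was 0.88 ± 0.27 higher and its partner Cdc45l was lower (95% interval -1.74 to -0.47), with adjusted p-values of 0.444 and 0.316. Pcna, the sliding clamp, differed by 0.05. These single members outside the family were picked after their values were seen.

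The inflammatory genes that the response is known for were not called. Saa1, the serum amyloid A acute-phase protein, differed by 0.26 (95% interval -0.25 to 0.77). On 4 arrays of each genotype it was at or above 95% of the highest raw spot signal of any array. No spot was flagged as saturated. Tnf differed by -0.04 (-0.72 to 0.64), Il1b by 0.68 (-0.15 to 1.52) and the chemokine Cxcl1 by -1.14 (-2.91 to 0.64). Il6 differed by -0.07 (-0.96 to 0.82), with knockout array 4 at -2.19, far below the rest of its group. Vegfa, the vascular growth factor, differed by 0.50 (-0.17 to 1.17) and Alb, near that highest signal on most arrays, by 0.23 (-0.24 to 0.69). Their adjusted p-values lay between 0.885 and 1. The intervals of Cxcl1, Il1b and Vegfa leave room for more than a 2-fold difference. Without knockout arrays 4 and 6, Saa1 differed by 0.14, Tnf by -0.38, Il1b by 0.21 and Il6 by 0.26. Cxcl1 then differed by -1.53 (adjusted p = 0.772) and Alb by 0.11, and none of these passed. Cyp7a1 was below the brightness filter and was not tested.

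Of 817 measured genes on 46 lists of pathways and cell types, Moxd1 was the only 1 called. Over all genes 0.15% were called, so the lists held calls at about the share of all genes. At an unadjusted p under 0.05, 48 were higher and 13 lower, or 7.47% against 6.2% of all genes. Over all genes 2.84% were higher and 3.36% lower. The list genes were read in the same mice, so these counts are only a description. For 294 list genes (36.0%) the 95% interval lay within 1 log2 unit of 0, so a difference of 2-fold or more was outside it. In the mean of each list on each array, the genotypes overlapped for all 46 lists. Without arrays 4 and 6, the E2F family and the male-biased list did not overlap, the latter only with Moxd1 in it.

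The unfolded protein and integrated stress response list, whose chaperones fold secretory proteins, had 5 of 23 members lower and 0 higher at an unadjusted p under 0.05, where 3.36% of all genes were lower and 2.84% higher. Its median was -0.33, and -0.30 without arrays 4 and 6. The 5 were Hspa5 (-0.67), Hyou1 (-0.97), Sdf2l1 (-0.78), Creld2 (-0.51) and the stress factor Ddit3 (-0.68), none of them called and each picked after its value was seen. Hspa5, the main chaperone of the endoplasmic reticulum, read 7.89 to 8.29 in wild type. Its knockout arrays 1 to 5 read 7.17, 7.45, 7.14, 7.11 and 7.35, all lower, and array 6 read 8.48, the highest of all 12.

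Several lists had smaller medians once knockout arrays 4 and 6 were left out. Kupffer cell and macrophage markers had a median of 0.41 with all arrays and -0.08 without arrays 4 and 6, complement 0.36 and 0.04, the urea cycle 0.41 and 0.04, and neutrophil markers 0.45 and 0.19. The mean of the 20 Kupffer and macrophage markers, relative to wild type, ran from -1.19 to 0.89 on the wild-type arrays. It ran from -1.09 to 0.74 on 5 knockout arrays and was 2.19 on knockout array 4. None of these markers was called, and the part of these cells in the other results was not tested. Interferon-stimulated genes had a median of 0.48, against -0.004 over all genes, and 0.30 without the 2 arrays, and none was called. With all arrays 40 of 43 were above 0, but these genes were read in the same mice, so that count is only a description. Their mean, relative to wild type, ran from -1.29 to 1.39 on the wild-type arrays. It was -0.29 and 1.67 on knockout arrays 4 and 6 and ran from -0.33 to 0.79 on the 4 others. Gbp1 was not on that list. The regenerating-islet lectins, antimicrobial proteins, had the highest median, 0.92, and 1.28 without the 2 arrays, but only 4 were measured. Their brightest member Reg3b differed by 0.64 ± 0.62 and overlapped widely.

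**Figure D5:**
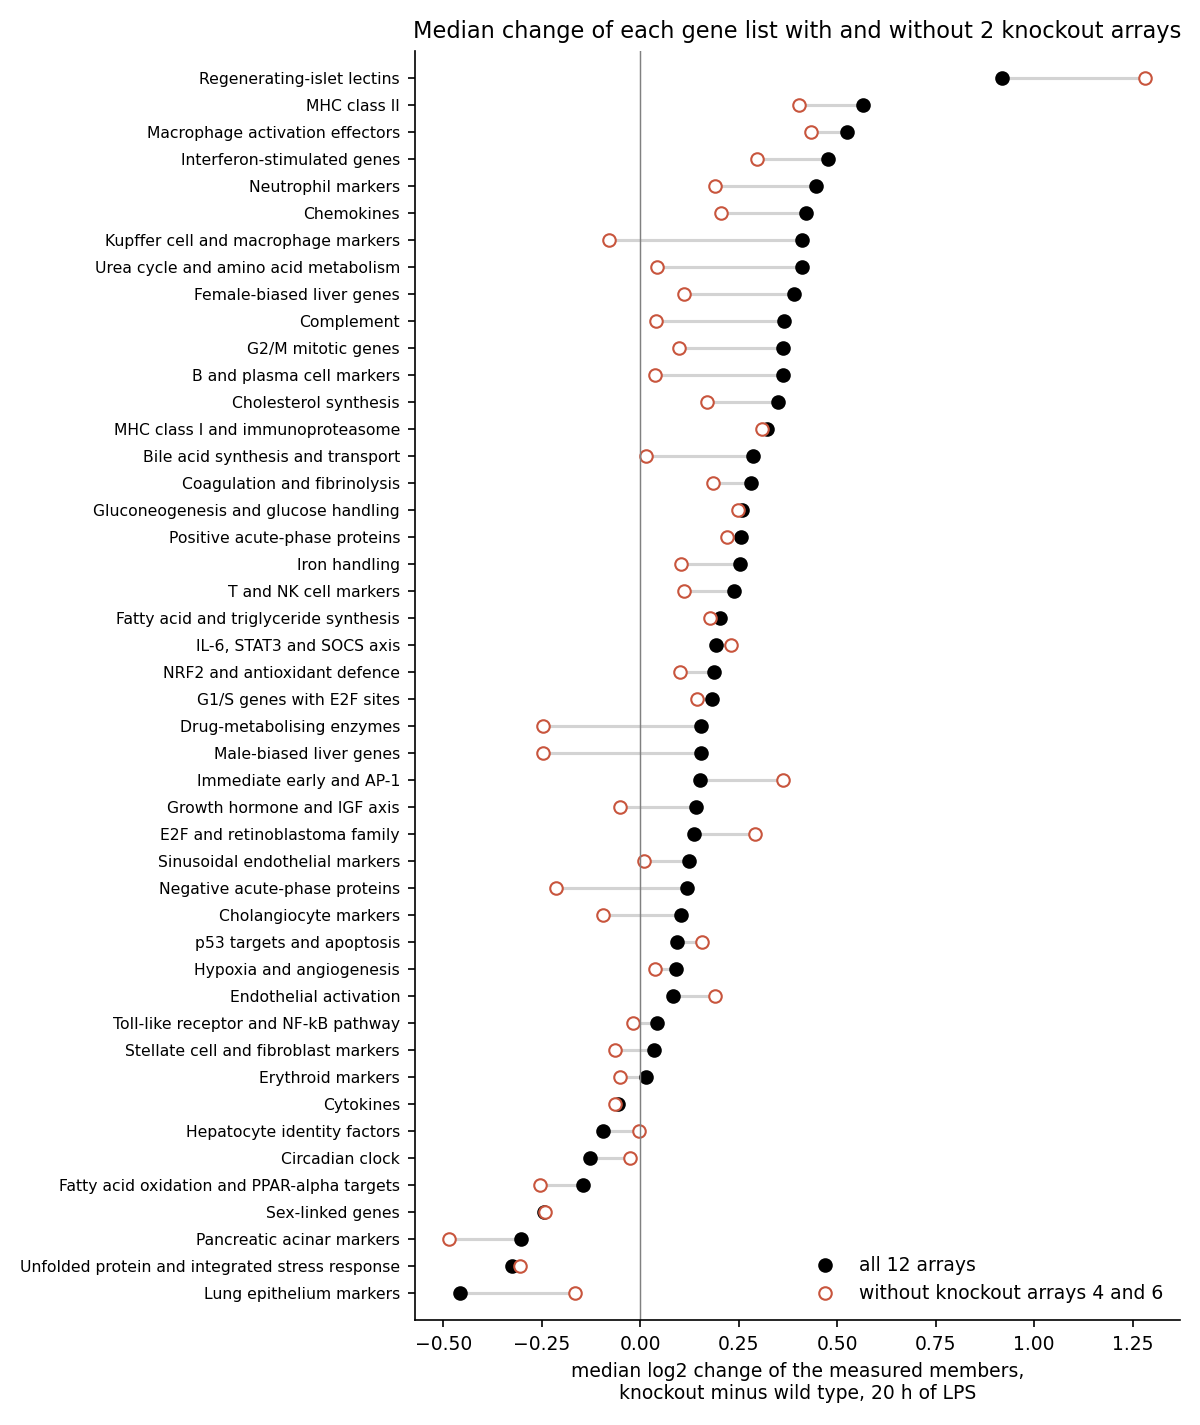
Median knockout minus wild-type log2 difference of each gene list at 20 h of LPS, with all 12 arrays and without knockout arrays 4 and 6. With all arrays 38 of 46 medians were above 0, and without the 2 arrays 29 were.

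Cyp2b9, Cyp2b10 and Cyp2b13, which are cytochrome P450 enzymes, were the largest uncalled differences on the drug and sex-biased lists and were picked for it. Cyp2b10 read -2.24, 0.46, -1.26, -1.07, -3.67 and -3.63 in wild type and 0.73, 0.47, 2.71, 0.75, 1.12 and 0.80 in the knockout. The genotypes just failed to meet, between wild-type array 2 and knockout array 2. The Cyp2b10 difference had a 95% interval of 1.60 to 4.40 (adjusted p = 0.132). That of Cyp2b13 was 3.08 ± 0.63 (adjusted p = 0.0926) and that of Cyp2b9 2.99 ± 0.75 (adjusted p = 0.252). Without arrays 4 and 6 they were 3.16, 3.21 and 3.18. In 1 fit of all 32 arrays, which called 0.363% of genes at 20 h, they passed, with adjusted p-values of 0.0253, 0.0184 and 0.0201. On saline Cyp2b10 was 1.65 higher (adjusted p = 0.354), and 1.40 higher without the high-scoring array (adjusted p = 0.403), without passing. The 3 genes are close paralogs, so their probes may share signal.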

How the data were processed

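Liver RNA of 32 mice was hybridised to Agilent 1-colour (Cy3) mouse arrays, of which 12 are compared here. Per the file headers, the deposited intensity values were read by Feature Extraction 10.7.1.1, which subtracted background and detrended each array. The deposited table of processed values, from the authors, is on a log2 scale; no source used here says how it was normalized. It holds 23916 probes, with column medians of 8.892 to 8.978 for the 12 arrays, and each column correlated best with its own scanner file (r = 0.984 to 0.989 across probes). Its scale was taken from these values, and its centring stays unknown.

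Processed signals were turned to log2 and the 75th percentile of each array was subtracted. Control and outlier spots were left out, spots of a probe were averaged, and probes well above background on at least 4 of the 12 arrays were kept (25585). Of several probes of 1 gene name, the one with the highest mean signal was used. Genotypes were compared with limma 3.58.1 in R 4.3.3, two-sided, with Benjamini-Hochberg adjustment over 17339 genes and a threshold of 0.05; the code was tested on simulated data. The median standard error was 0.317 in log2, and the number of arrays limits the precision. A gene below background on all arrays of a genotype has only a bound there; its fold sets the bright group's mean against the lowest signal well above background. Of the names, 12574 were matched to RefSeq by accession, 1399 by symbol and 487 by synonym.

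Genes are named by rule: the E2F and retinoblastoma family; Saa1, Tnf, Il6, Il1b, Cxcl1, Vegfa, Cyp7a1 and Alb; the 12 largest rises and 12 largest falls among called genes whose genotypes do not overlap, without clone names; and for each list up to 4 called members and the brightest uncalled one. Others are said to be picked after their values were seen. The members and lists were chosen with earlier results of these data known.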

Additional observations from a re-analysis of the deposited data

Results flagged for a closer look

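In 66 groups checked for a single array far from the rest, 5 had one, where chance gives about 1 in 20 groups. The response score of knockout array 4 at 20 h of LPS was 0.3551, and the nearest of its group was 0.9603. The same array had Il6 at -2.195, with the next at -0.234. Knockout array 6 had E2f7 at -4.855 (next -3.845) and Rb1 at -0.6378 (next 0.2447). Wild-type array 2 had E2f1 at -4.029, with the next wild-type array at -5.784.

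For 6 genes the genotype difference at 20 h of LPS departed from that on saline by limma's test of the difference itself. Adamts13 changed by -4.994 (adjusted p = 0.000165), C330011K17Rik by -4.928 (adjusted p = 0.0137) and NAP062699-1 by -5.438 (adjusted p = 0.0323). The chemokine receptor gene Ccr3 changed by 1.872, 2810403A07Rik by -1.394 and NAP123224-1 by -1.848, each at an adjusted p of 0.0323. Only Adamts13 passed without knockout arrays 4 and 6. Its wild-type saline signal was below background on all 6 arrays, so the size of its change is not exact.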

How the results depend on the processing

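Against 26 genes called, 1 fit of all 32 arrays called 63 genes (31 higher, 32 lower), and 98 without 1 knockout array each of saline and of 6 h. Array weights gave 104 genes and the slide as a random block 79. Fewer were called with normexp background correction followed by quantile normalization (9), the deposited table (16), an adjusted p under 0.01 (12) and the slide as a fixed block (1), and 0 within each scan date. Leaving out 1 array at a time gave 13 to 23 genes; 13 without knockout array 5 and 16 without knockout array 2 or 3 were the lowest. The replicate block gave 6 genes, but same-numbered arrays are different mice and did not deviate together (correlations across genes of -0.28 to 0.38), so the numbers do not pair them. The counts under quantile normalization (27), median centring (26), no filter (18) and the mean over probes (22) were within 1.5 times. The causes were not tested. Dct, Myom2, Moxd1, Tiam2, Cml4, Tmprss4 and Hs6st3 stayed called whichever single array was left out, Gbp1 in 1 of these 12 fits, Prm1 in 3, Kcnh2 in 4, and Slc8a1 and Rprd1b in 5.

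E2f1 stayed higher under every alternative run. It was 3.51 in the fit of all 32 arrays (adjusted p = 0.00337) and in that of 30 arrays (adjusted p = 0.00312), 4.07 with array weights (adjusted p = 0.0091) and 3.35 with the slide as a random block (adjusted p = 0.0119). It was 1.38 with normexp and quantile normalization together, 1.51 in the deposited table, and 5.29 and 1.90 within scan dates 2 and 3. Leaving out 1 array gave 3.14 to 3.91, the highest without knockout array 6 (adjusted p = 0.0468). At 6 h of LPS 65 genes were called without knockout array 1, and the difference from saline gave 16 genes without knockout saline array 1 and 1 without knockout arrays 4 and 6. Probes below background, and 6 arrays a group, limit what could be seen among faint genes.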
